A study of Mus musculus with 4 samples.

Results

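The nuclei described here are GABAergic nuclei of the mouse posterior substantia innominata that carry RNA of both Tshz1 and Foxp2. Nuclei were chosen by their own UMI counts of 8 genes. A nucleus was included when it held at least 3 UMIs (unique molecular identifiers, which count captured RNA molecules) of Tshz1 and at least 3 of Foxp2, at least 1 of Gad1 or Gad2, at most 1 of Drd2, and no UMI of Drd3, Slc17a6 or Slc17a7. These counts found 658 nuclei among the 38868 that passed quality limits, of which the library male 1 gave 263, male 2 gave 235, female 1 gave 111 and female 2 gave 49. The tissue was the microdissected posterior substantia innominata, part of the basal forebrain below the striatum, of wild type mice aged 8 weeks, with no treatment given in the labels. Each of 2 male and 2 female libraries was made by droplet single-nucleus RNA sequencing. Whether the 2 libraries of a sex came from different animals or from pooled tissue is not given in the labels. The spread between libraries may therefore be technical. For comparisons of nucleus sets, a p-value measures how the difference within a library varies across libraries. Between male and female nuclei it measures the spread between the libraries themselves. The nuclei were set against 16048 other GABAergic nuclei with at least 2 UMIs of Gad1 and Gad2 together, library by library.

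Tshz1 encodes a zinc finger transcription factor and Foxp2 a forkhead transcription factor. In the mouse both are known from the intercalated cell masses of the amygdala, small islands of inhibitory neurons that arise from the dorsal lateral ganglionic eminence, and from subsets of striatal projection neurons. Gad1 and Gad2 encode the enzymes that make GABA, and Slc17a6 and Slc17a7 the vesicular glutamate transporters. Chst9, a sulfotransferase that acts on terminal N-acetylgalactosamine, Npffr2, a receptor for neuropeptide FF, and Htr1f, an inhibitory serotonin receptor, complete the set of genes by which these nuclei were proposed.

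Depth differed with sex. The male libraries held 158132452 and 144035342 UMIs, and the female libraries 53098268 and 53679351. The median UMI count of a Tshz1 Foxp2 nucleus was 11423 and 10036 in the male libraries and 5271 and 6479 in the female libraries, against 13447.5, 13012, 6086 and 6492 for other GABAergic nuclei. The software version written in the matrix headers, the gene list and the set of cell barcodes changed with the libraries too, and the labels name more than one version of the library chemistry without saying which library used which. Sex, depth, chemistry and processing therefore cannot be told apart. The male libraries shared 23 barcodes and the female libraries 35. No barcode was that of a Tshz1 Foxp2 nucleus in both libraries of a pair. Whether a Tshz1 Foxp2 nucleus shared its barcode with a nucleus of another kind was not counted.

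The gate can be followed step by step. Of nuclei with at least 3 UMIs of both genes male 1 held 407, male 2 held 363, female 1 held 161 and female 2 held 84. The largest losses in the male libraries came from Drd3, detected in 66 and 54 of these nuclei, and from the glutamate transporters, detected in 60 and 58. The median nucleus held 4, 4, 4 and 3 UMIs of Tshz1 in the order male 1, male 2, female 1, female 2, and 16, 14, 9 and 9 UMIs of Foxp2. Exactly 3 Tshz1 UMIs were found in 30.0, 30.6, 44.1 and 55.1% of the nuclei, while exactly 3 Foxp2 UMIs were found in 3, 6, 1 and 6 nuclei. Just inside it, nuclei with 3 Tshz1 UMIs had 285, 353, 389 and 267 CPM of Chst9 (CPM, counts of a gene per 1000000 UMIs). Just outside it, nuclei with 2 Tshz1 UMIs that met every other condition had 170, 202, 263 and 231 CPM.

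The genes used for the gate and the 3 further genes of the label are given as a description, without a test, because they chose the nuclei. Chst9 was at 365, 484, 351 and 361 CPM in Tshz1 Foxp2 nuclei, against 29.6, 31.9, 38.4 and 20.02 CPM in other GABAergic nuclei (male 1, male 2, female 1, female 2, an order kept below). Npffr2 was at 39.7, 60.5, 52.9 and 51.8 CPM, against 4.60, 4.63, 4.24 and 3.69 CPM. Htr1f was at 679, 816, 542 and 667 CPM, against 184, 188, 172 and 151 CPM. All 4 libraries placed the 3 genes above the other GABAergic nuclei, with log2 folds of 3.72, 3.50 and 1.95. Gad2 was at 229, 211, 195 and 180 CPM, against 268, 272, 329 and 287 CPM in the nuclei of the comparison, whose gate asked for more Gad UMIs. Slc32a1, the vesicular GABA transporter and no part of the gate, did not pass the test (adjusted p = 0.78), at 39.5, 48.8, 10.8 and 59.5 CPM against 40.1, 42.3, 15.2 and 53.9 CPM.

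Chst9 was detected in 76.4, 78.7, 65.8 and 67.3% of Tshz1 Foxp2 nuclei, against 11.4, 11.9, 9.65 and 5.87% of other GABAergic nuclei. Mature oligodendrocyte nuclei, which should lack it, had a Chst9 UMI in 1.32, 1.35, 2.77 and 0.794% at median depths of 2235, 2146, 1933 and 1572 UMIs. When nuclei with at least 3000 UMIs were thinned to 3000 UMIs and the others left out, the Chst9 share was 54.8, 60.4, 56.3 and 59.1% in Tshz1 Foxp2 nuclei. It was 5.47, 5.78, 5.93 and 3.55% in other GABAergic nuclei. Chst9 was thus found in most Tshz1 Foxp2 nuclei of every library, at full depth and after thinning. Npffr2 was detected in 32.7, 37.4, 25.2 and 32.7% of Tshz1 Foxp2 nuclei, against 4.41, 4.71, 2.03 and 2.40% of other GABAergic nuclei. Oligodendrocyte nuclei had it in 0.586, 0.150, 0.264 and 0.159%. After thinning, Npffr2 was found in 14.1, 16.2, 18.4 and 20.5% of Tshz1 Foxp2 nuclei. Both genes thus stood above the oligodendrocyte level in every library. The gate gene Tshz1 had a higher such level, with a UMI in 10.1 and 9.75% of oligodendrocyte nuclei of male 1 and male 2. Other GABAergic nuclei had one in 26.1 and 25.9%. After thinning, the shares were 10.2 and 10.7% of oligodendrocyte nuclei, against 8.53 and 8.16% of other GABAergic nuclei. How far RNA from other cells carried nuclei over the Tshz1 gate was not tested. All 3 label genes were detected together in 28.1, 33.6, 19.8 and 24.5% of Tshz1 Foxp2 nuclei, against 1.90, 2.13, 0.945 and 0.562% of other GABAergic nuclei, and 8.37, 7.23, 9.01 and 14.3% of Tshz1 Foxp2 nuclei had none of them. Tshz1 Foxp2 nuclei held 5.09, 4.06, 3.30 and 1.71% of the UMIs of all GABAergic nuclei, but 39.9, 39.0, 24.5 and 24.8% of those of Chst9.

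To compare the nuclei with other GABAergic nuclei across genes, UMIs were summed per library and nucleus set, and the sums of one library were compared with edgeR's quasi-likelihood test (p-values adjusted by the Benjamini-Hochberg method over all genes tested). Of 17560 genes tested, 2236 (12.7%) passed an adjusted p of 0.05. Of these, 967 (5.51%) were higher and 1269 (7.23%) lower in Tshz1 Foxp2 nuclei, and the median log2 fold of all genes was −0.05. The gate and label genes are left out of these counts and of every count below. DESeq2 called 1240 genes and a fit without the library term 297.

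Rai14, which encodes an ankyrin repeat protein that binds actin (chr15:10568969-10714624, GRCm38, GENCODE vM21), had the largest fold of the genes named by the selection rule. It was at 53.1, 81.0, 81.7 and 57.5 CPM in Tshz1 Foxp2 nuclei, against 11.5, 12.1, 12.8 and 10.7 CPM in other GABAergic nuclei, and averaged 68.3 ± 15.2 against 11.8 ± 0.887 CPM (SD, n = 4 libraries each). The log2 fold was 2.51 with a standard error of 0.11 (adjusted p = 1.18e-24), and the lowest library of the Tshz1 Foxp2 nuclei lay far above the highest of the others. Kcnh5, a voltage-gated potassium channel subunit of the ether-a-go-go family (chr12:74897220-75177332), was at 424, 509, 359 and 313 CPM, against 104, 104, 98.7 and 78.2 CPM. Its log2 fold was 2.06 ± 0.07 (SE, adjusted p = 4.38e-28), again with no overlap. Sema5b, a transmembrane semaphorin of axon guidance (chr16:35541145-35664732), was at 77.7, 97.3, 111 and 74.8 CPM, against 17.3, 16.4, 40.1 and 20.8 CPM (log2 2.11 ± 0.11, adjusted p = 2.56e-22). Female 1 had the highest Sema5b level in both sets of nuclei.

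Erbb4, the neuregulin receptor that many forebrain GABAergic neurons carry (chr1:68032186-69108059), was at 5545, 6614, 5634 and 4440 CPM in Tshz1 Foxp2 nuclei, against 1839, 1817, 1774 and 1017 CPM in other GABAergic nuclei. Its log2 fold was 1.81 ± 0.08 (adjusted p = 7.38e-25), and female 2 was lowest in both sets. A pair of nuclear factor I genes, transcription factors of neuronal and glial differentiation, rose as well. Nfib (chr4:82290173-82705750) was at 380, 497, 470 and 272 CPM, against 111, 116, 151 and 72.1 CPM (log2 1.86 ± 0.08, adjusted p = 3.87e-26). Nfix (chr8:84699876-84800344) was at 48.3, 52.5, 68.5 and 65.2 CPM, against 14.2, 14.8, 20.8 and 12.1 CPM (log2 1.85 ± 0.11, adjusted p = 2.92e-19). The TALE homeodomain factor Pbx3, a partner of the Meis proteins, was at 1088, 1310, 1228 and 1003 CPM, against 432, 440, 513 and 324 CPM (log2 1.44, adjusted p = 3.37e-22).

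Among the other named higher genes, Msra, which repairs oxidised methionine (chr14:64122625-64455903), was at 395, 479, 357 and 353 CPM, against 115, 113, 121 and 78.0 CPM (log2 1.89, adjusted p = 1.01e-25). Gucy1a1, a subunit of the soluble guanylate cyclase that nitric oxide activates, was at 102, 101, 60.1 and 67.1 CPM, against 28.1, 27.0, 27.6 and 20.4 CPM (log2 1.75, adjusted p = 3.63e-21). Cpne4, a calcium-dependent phospholipid-binding copine, was at 725, 811, 629 and 403 CPM, against 203, 206, 215 and 181 CPM (log2 1.67, adjusted p = 2.3e-22). Every library was higher in Tshz1 Foxp2 nuclei for each of these genes. Csgalnact1, which starts chondroitin sulfate chains, had a log2 fold of 1.45 (adjusted p = 8.98e-22), and Otof, the calcium sensor otoferlin, of 1.46 (adjusted p = 2.17e-17). Gdpd5, Sox1ot, Col23a1, Tll1, Ipcef1, Marchf3 and Tspan9 completed the named higher genes, with log2 folds between 1.43 for Tspan9 and 1.86 for Gdpd5.

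Promoters of 5 of the genes that were high together are shown, because the factors of 3 binding families were high in the same nuclei. Windows of 250 bases were searched, on both strands, for the core letters of those families: TGACAG for Meis factors, TAAACA for forkhead factors and TTGGCA for the core of nuclear factor I sites. RefSeq promoters (GRCm38.p6) were found for 14 of 22 label and leading genes, in 25 windows. TGACAG was in none of them, against 15.9% of 32851 windows of that length across the genome's genes. TAAACA was in a window of 1 gene, Ipcef1, against 12% of all windows, and TTGGCA in windows of 2 genes, Npffr2 and Cpne4, against 12.3%. A match only describes the letters, and a window without one says nothing about the factor. Each line below gives the strand of the gene 5′ to 3′ at chr5:89527179-89527428 (plus), chr9:104587808-104588057 (plus), chr10:6980282-6980531 (minus), chr15:10714099-10714348 (minus) and chr12:75177333-75177582 (minus), with the matches in capitals (TGCCAA is TTGGCA on the other strand).
Npffr2: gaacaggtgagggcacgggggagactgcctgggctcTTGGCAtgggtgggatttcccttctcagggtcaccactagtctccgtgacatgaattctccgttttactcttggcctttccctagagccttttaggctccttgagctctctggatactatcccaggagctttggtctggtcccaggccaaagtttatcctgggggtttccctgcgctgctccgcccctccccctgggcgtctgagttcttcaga
Cpne4: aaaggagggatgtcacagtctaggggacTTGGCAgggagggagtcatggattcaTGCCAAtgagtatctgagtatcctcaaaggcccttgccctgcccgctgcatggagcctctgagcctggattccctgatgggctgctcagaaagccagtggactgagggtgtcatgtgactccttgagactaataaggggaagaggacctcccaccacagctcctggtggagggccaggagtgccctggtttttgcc
Ipcef1: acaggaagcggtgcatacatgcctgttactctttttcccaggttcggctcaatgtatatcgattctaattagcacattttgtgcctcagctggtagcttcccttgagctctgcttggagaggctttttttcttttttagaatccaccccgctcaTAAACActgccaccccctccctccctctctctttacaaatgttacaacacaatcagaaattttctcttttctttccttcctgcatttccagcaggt
Rai14: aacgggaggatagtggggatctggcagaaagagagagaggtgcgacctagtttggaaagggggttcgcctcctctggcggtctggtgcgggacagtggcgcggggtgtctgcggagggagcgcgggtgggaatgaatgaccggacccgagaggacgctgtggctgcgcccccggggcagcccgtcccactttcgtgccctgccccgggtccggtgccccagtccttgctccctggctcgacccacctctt
Kcnh5: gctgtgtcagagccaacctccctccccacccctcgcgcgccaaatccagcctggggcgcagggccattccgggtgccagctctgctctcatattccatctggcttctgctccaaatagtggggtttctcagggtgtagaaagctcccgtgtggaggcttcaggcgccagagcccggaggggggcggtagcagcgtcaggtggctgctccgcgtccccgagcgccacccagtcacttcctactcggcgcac

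The genes that were lower included transcription factors of other forebrain lineages and modifiers of heparan sulfate. Zfhx3, a zinc finger homeodomain factor, was at 312, 234, 236 and 228 CPM in Tshz1 Foxp2 nuclei, against 663, 633, 680 and 615 CPM in other GABAergic nuclei (log2 −1.35, adjusted p = 1.16e-19). Tshz2, the paralog of Tshz1, was at 331, 237, 202 and 165 CPM, against 567, 555, 613 and 599 CPM (log2 −1.27, adjusted p = 7.21e-16). Tshz2 was therefore lower in every library in nuclei chosen for Tshz1. Ebf1, a factor of striatonigral development in the mouse, was at 63.1, 83.6, 98.5 and 142 CPM, against 204, 192, 325 and 253 CPM (log2 −1.40, adjusted p = 1.79e-17). Ndst4, an enzyme that adds sulfate to the nitrogen of heparan sulfate sugars, was at 45.0, 52.5, 52.9 and 19.2 CPM, against 147, 143, 166 and 147 CPM (log2 −1.69, adjusted p = 2.91e-19). Kcnmb2, an accessory subunit of large-conductance calcium-activated potassium channels, was at 26.1, 21.1, 56.5 and 7.67 CPM, against 79.4, 79.6, 98.1 and 83.5 CPM (log2 −1.63, adjusted p = 2.75e-15). Il1rapl2, Ptchd4, Epha4 and Klhl1 had log2 folds from −1.42 to −1.26. In all 30 genes that met the naming rule the libraries of the Tshz1 Foxp2 nuclei and of the other nuclei did not overlap. The rule takes large folds of one direction in every library, so this describes the choice and adds no support. The share of all tested genes without overlap was not counted, here or in any comparison below.

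**Figure D1:**
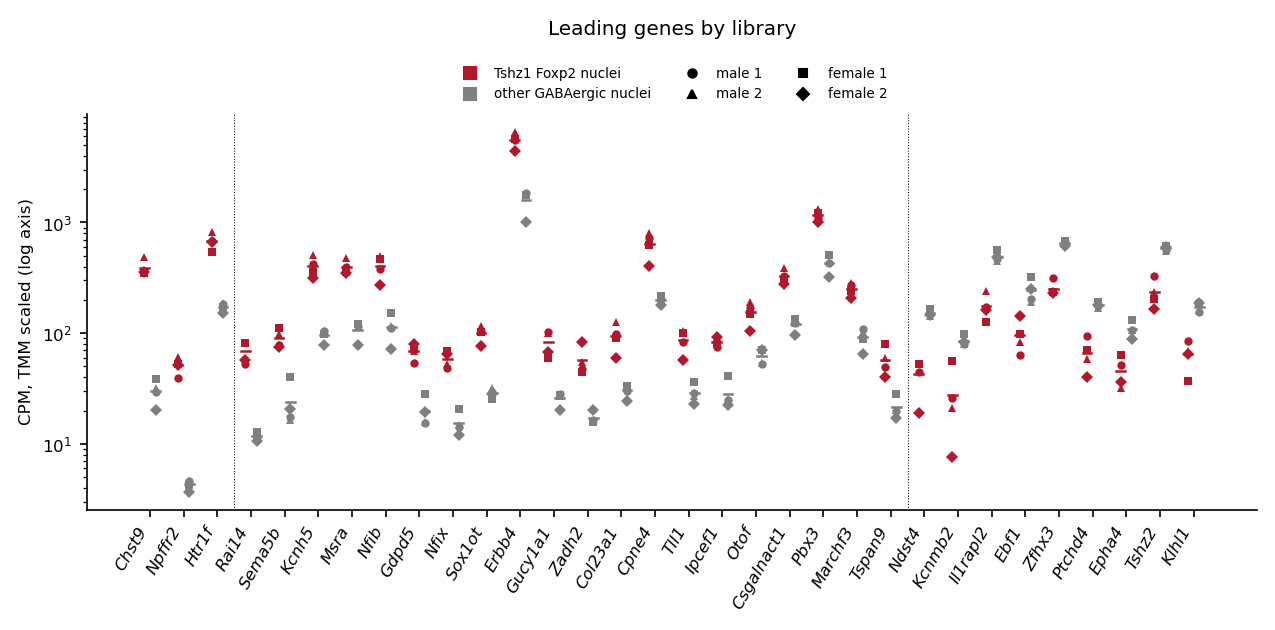
Levels of the 3 label genes outside the gate, the named higher genes and the named lower genes (horizontal axis, the groups parted by dotted lines) in CPM on a log axis, with Tshz1 Foxp2 nuclei and other GABAergic nuclei in different colours and 1 marker shape for each library. For Rai14 the 4 libraries of the Tshz1 Foxp2 nuclei lie between 53.1 and 81.7 CPM and those of the other nuclei between 10.7 and 12.8 CPM, and no plotted gene shows an overlap.

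Of the named higher genes, Zadh2 lies next to Tshz1 on chromosome 18, at chr18:84088063-84097528 on the plus strand, while Tshz1 runs on the minus strand at chr18:84011627-84087706. Zadh2, a zinc-binding oxidoreductase, was at 47.5, 55.2, 44.5 and 82.5 CPM in Tshz1 Foxp2 nuclei, against 16.3, 15.8, 15.7 and 20.2 CPM in other GABAergic nuclei (log2 1.70, adjusted p = 4.19e-18). The starts of the genes are close and the sources used here do not state whether counting used strand, so how many Zadh2 UMIs come from Tshz1 RNA was not tested.

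The label was set beside genes of the lineages these nuclei could belong to. All lists were chosen with earlier results of these data known. Their counts, here and in every comparison below, are therefore a description and no independent check of the label. Of 33 transcription factors of the ganglionic eminences, 7 were higher and 13 lower, with a list median of −0.42 against −0.05 for all genes. This and each list count below against other GABAergic nuclei is to be read against the 5.51% of all genes called higher and the 7.23% called lower. List counts of the later comparisons are to be read against the shares given with those comparisons. The higher members included Meis2, Pbx3, Foxp4, Sp9, Six3 and Mef2c, of which Meis2, Sp9 and Six3 are known from the lateral ganglionic eminence. Meis2, a TALE homeodomain factor, was at 1726, 1884, 1888 and 1490 CPM in Tshz1 Foxp2 nuclei, against 706, 686, 902 and 499 CPM (log2 1.34 ± 0.07, adjusted p = 1.77e-20). Six3, a homeodomain factor of striatal development, was at 24.6, 29.1, 20.4 and 34.5 CPM, against 11.1, 10.3, 9.67 and 12.7 CPM (log2 1.3, adjusted p = 1.14e-10). Neither gene's groups overlapped. The lower members included factors of the striatal lineage as well (Foxp1, Isl1, Ebf1 and Bcl11b), and Lhx6, Lhx8, Sox6 and Satb1, which are known from the medial ganglionic eminence. For Sox6 the groups overlapped, and Tshz1 Foxp2 nuclei were higher in female 1, at 321 against 286 CPM. Isl1, a LIM homeodomain factor of striatonigral neurons, was at 10.6, 6.36, 2.40 and 11.5 CPM, against 27.7, 29.2, 17.2 and 26.3 CPM (log2 −1.72, adjusted p = 1.84e-11). Lhx8, which marks cholinergic development, was at 5.28, 3.68, 2.40 and 1.92 CPM, against 11.6, 11.999, 13.6 and 17.6 CPM (log2 −1.57, adjusted p = 4.77e-07).

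General markers of striatal projection neurons did not move together. Of 20 listed genes, 3 were higher (Drd1, Penk and Arpp21) and 6 lower (Pde1b, Bcl11b, Foxp1, Pdyn, Adora2a and Rasgrp2), with a median of −0.13. The gate kept nuclei rich in Drd2 out of the Tshz1 Foxp2 set but not out of the comparison (Drd2 at a mean of 2.40 against 19.6 CPM). How far this choice sets the lower calls, that of Adora2a among them, was not tested. Drd1, the dopamine receptor of striatonigral neurons, was at 21.6, 27.8, 16.8 and 30.7 CPM in Tshz1 Foxp2 nuclei, against 15.5, 14.4, 10.9 and 15.6 CPM (log2 0.72, adjusted p = 7.86e-05). The groups did not overlap, but the call was lost without the library term and after thinning. Penk, which encodes enkephalin precursor, had a log2 fold of 0.32 (adjusted p = 0.00315) that was lost in 5 of 14 alternatives. Ppp1r1b, the striatal phosphatase inhibitor DARPP-32, was at 4.27, 4.68, 4.81 and 1.92 CPM, against 5.21, 5.69, 10.8 and 3.91 CPM (adjusted p = 0.317). Bcl11b, a zinc finger factor of striatal neurons, was at 103, 102, 111 and 72.9 CPM, against 132, 136, 158 and 135 CPM (log2 −0.47, adjusted p = 1.51e-05). Drd1 was detected in 25.1, 24.3, 10.8 and 16.3% of Tshz1 Foxp2 nuclei, against 16.1, 14.9, 6.5 and 10.7% of other GABAergic nuclei and 1.76, 0.750, 0.791 and 1.11% of oligodendrocyte nuclei. After thinning the shares were 7.60, 8.51, 4.85 and 6.82%, against 4.52, 3.45, 3.47 and 5.55% of other GABAergic nuclei.

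Genes of striosomes, the patch compartment of the striatum, gave 3 higher and 1 lower of 8, with a median of 0.32. This list too was chosen with earlier results known, so its count adds no support. Oprm1, the mu opioid receptor, was at 162, 175, 202 and 196 CPM in Tshz1 Foxp2 nuclei, against 106, 106, 127 and 106 CPM (log2 0.70 ± 0.07, adjusted p = 8.32e-11). Lypd1, which binds and modulates nicotinic receptors, was at 105, 122, 99.7 and 95.9 CPM, against 51.1, 49.9, 37.2 and 40.7 CPM (log2 1.21, adjusted p = 2.26e-17). Sema5b, given above, was the third higher member, and the lower one was Pdyn, the dynorphin precursor, at an adjusted p of 0.0499, which was called in 6 of 14 alternatives. Of the 3 genes of the striatal matrix, Epha4 and Calb1 were lower and none was higher. Oprm1 UMIs were found in 76.8, 71.9, 64.9 and 67.3% of Tshz1 Foxp2 nuclei, against 56.6, 56.4, 41.8 and 43.1% of other GABAergic nuclei and 5.27, 4.50, 6.98 and 5.71% of oligodendrocyte nuclei.

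Receptors for transmitters and peptides split by family. Htr1f apart, 11 serotonin receptors were tested, of which 0 were higher and 5 lower (Htr1b, Htr1d, Htr2c, Htr4 and Htr7), and the list median was −0.75. Htr1d was called in 5 and Htr7 in 6 of 14 alternatives. Htr2c, an excitatory serotonin receptor, was at 364, 246, 212 and 240 CPM in Tshz1 Foxp2 nuclei, against 630, 614, 583 and 456 CPM (log2 −1.11, adjusted p = 1.65e-15). Htr4 was at 76.9, 64.6, 36.1 and 61.4 CPM, against 113, 109, 105 and 88.0 CPM (log2 −0.75, adjusted p = 1.6e-08). Both fell in every library, while Htr1f, named in the label, stood higher in every library. Of 34 peptide receptors, 3 were higher (Cckbr, Ntsr1 and Mc4r) and 11 lower, with a median of −0.47. DESeq2 called 1 higher and 5 lower, and thinning 1 higher and 5 lower of 24. Ntsr1 was called in 9 of 14 alternatives and Mc4r in 7 of 13, whereas Cckbr was called in all 14. Cckbr, the cholecystokinin B receptor, was at 21.6, 23.4, 14.4 and 7.67 CPM, against 6.72, 7.23, 6.12 and 6.72 CPM (log2 1.54, adjusted p = 4.26e-10), with female 2 close to the other nuclei. Tacr3, the neurokinin B receptor, was at 7.79, 9.03, 4.81 and 3.84 CPM, against 21.1, 20.5, 15.2 and 24.6 CPM (log2 −1.43, adjusted p = 9.14e-09). Of 14 neuropeptides, 0 were higher and 4 lower (Sst, Tac2, Nts and Gal). DESeq2 called 0 higher and 2 lower of them, thinning left 0 calls among 10 tested, and without nuclei with glial UMIs 1 was higher and 3 lower.

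Glutamate and GABA receptors also divided. Of 7 metabotropic glutamate receptors, 4 were higher (Grm3, Grm4, Grm5 and Grm8) and 1 lower (median 0.26). Grm8, a presynaptic receptor that inhibits release, was at 1369, 1607, 1102 and 951 CPM in Tshz1 Foxp2 nuclei, against 694, 680, 707 and 543 CPM (log2 0.93, adjusted p = 3.27e-14). Tshz1 Foxp2 nuclei were higher for Grm8 in all 4 libraries. Of 18 ionotropic glutamate receptor genes, 3 were higher and 8 lower (median −0.24). Grin2a, an NMDA receptor subunit, averaged 1134 ± 118 CPM in Tshz1 Foxp2 nuclei and 612 ± 58.7 CPM in other GABAergic nuclei (SD, n = 4 libraries each, log2 0.90, adjusted p = 1.27e-14). Of 14 GABA-A receptor subunits, 3 were higher (Gabra4, Gabrg3 and Gabrd) and 6 lower (median −0.32). Gabrg1 was at 107, 95.002, 82.9 and 80.6 CPM, against 194, 204, 140 and 132 CPM.

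Potassium channels gave 11 higher and 7 lower of 32 (median −0.11). Kcnd2, which carries the transient A-type current, averaged 5515 ± 597 CPM in Tshz1 Foxp2 nuclei and 2839 ± 509 CPM in other GABAergic nuclei (SD, n = 4 libraries each, log2 0.97, adjusted p = 5.45e-15), and its auxiliary subunit gene Kcnip3 rose as well (log2 0.78, adjusted p = 1.79e-11). Kcnj6, a G protein-gated inward rectifier, was at 248, 269, 154 and 219 CPM, against 142, 134, 126 and 133 CPM (log2 0.76, adjusted p = 1.2e-10). The lower channels were Kcnb2, Kcnc2, Kcnh7, Kcnip1, Kcnq5, Kcnt1 and Kcnt2. Guidance and adhesion genes gave 11 higher and 19 lower of 45 (median −0.24). Cdh6, a classical cadherin, was at 120, 129, 123 and 97.8 CPM, against 46.8, 47.1, 74.4 and 48.1 CPM (log2 1.23, adjusted p = 1.49e-16). Slit3, a repellent ligand of the Robo receptors, was at 131, 111, 183 and 104 CPM, against 309, 292, 334 and 249 CPM (log2 −1.21, adjusted p = 3.96e-17). Cdh6 and Slit3 each kept the 2 sets of nuclei apart in all 4 libraries.

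Chst9 belongs to the carbohydrate sulfotransferases. Of 23 other members tested, 2 were higher (Chst1 and Chst2) and 6 lower (Chst15, Hs3st4, Hs3st5, Hs6st3, Ndst3 and Ndst4), with a median of −0.08, against 5.51% higher and 7.23% lower of all genes. Chst1 was called in 4 of 14 alternatives. Chst2, which sulfates N-acetylglucosamine, was at 10.6, 10.7, 14.4 and 15.3 CPM in Tshz1 Foxp2 nuclei, against 5.25, 4.55, 5.39 and 8.55 CPM (log2 1.12, adjusted p = 2.88e-05). Hs6st3, a heparan sulfate 6-O-sulfotransferase, was at 330, 323, 374 and 274 CPM, against 679, 651, 910 and 724 CPM (log2 −1.16, adjusted p = 9.83e-18). Of 19 immediate early genes, which respond to recent activity, Egr1, Egr3, Nr4a1 and Homer1 were higher and 0 were lower (median 0.27). DESeq2 called 2 of them higher and the thinned data 1 of 16, while removal of nuclei with glial UMIs gave 4 higher and 2 lower. Of 8 gonadal and corticosteroid genes, Esr1 and Nr3c2 were lower. Esr1, the estrogen receptor alpha, was at 17.1, 9.03, 9.61 and 26.9 CPM, against 28.6, 27.5, 26.5 and 29.4 CPM.

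**Figure D2:**
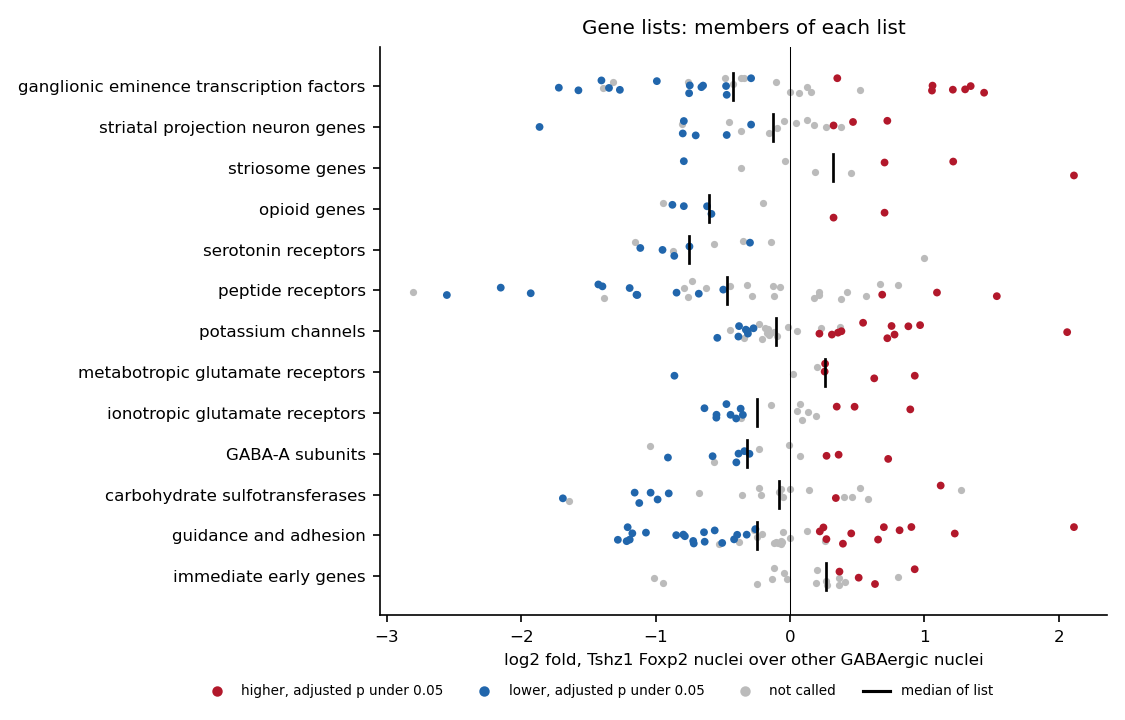
Each dot is a gene of the list named on the vertical axis, placed by its log2 fold of Tshz1 Foxp2 nuclei over other GABAergic nuclei (horizontal axis), coloured by whether it was called higher, lower or not, with a black line at the list median. The serotonin receptors have no gene called higher and a median of −0.75, while the striosome list has a median of 0.32.

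Markers of other cell types were read for the same nuclei. The cholinergic markers were lower: Chat was at 0, 2.34, 1.202 and 1.92 CPM in Tshz1 Foxp2 nuclei, against 9.49, 9.87, 13.8 and 18.0 CPM. Of 7 medial ganglionic eminence interneuron markers 0 were higher and 4 lower, and of 5 extended amygdala markers 0 were higher and 3 lower (Prkcd, Tac2 and Nts). Of 7 oligodendrocyte markers 3 were higher (among them Mobp and Mbp), of 8 astrocyte markers 2 (Aqp4 and Slc1a3), and 0 of either list were lower. Of 3 markers of oligodendrocyte precursors, Pdgfra and Vcan were higher (list median 0.49). The summed oligodendrocyte markers were at 358, 369, 1239 and 506 CPM in Tshz1 Foxp2 nuclei, against 334, 344, 624 and 494 CPM in other GABAergic nuclei. The astrocyte sum was 309, 303, 787 and 395 CPM, against 255, 259, 386 and 483 CPM. Both sums were highest in the Tshz1 Foxp2 nuclei of female 1. After nuclei with 3 or more UMIs of 6 glial genes were removed from both sets, an alternative added after the data were seen, 1 oligodendrocyte marker was higher, and 0 astrocyte markers were higher and 1 lower, while 2 of the 3 precursor markers were still higher (list median 0.51).

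The next comparisons asked which differences go with Tshz1 and which with Foxp2. Foxp2 nuclei without Tshz1 had at least 3 Foxp2 UMIs and none of Tshz1 under the same conditions (2082 nuclei), and Tshz1 nuclei without Foxp2 were defined the other way round (189 nuclei). Against Foxp2 nuclei without Tshz1, 1447 of 13876 genes (10.4%) were called, 777 (5.6%) higher and 670 (4.83%) lower. Against Tshz1 nuclei without Foxp2, 1001 of 10529 genes (9.51%) were called, 511 (4.85%) higher and 490 (4.65%) lower. The 3 comparisons share the Tshz1 Foxp2 nuclei, so their agreement is no independent repeat. In all 3, 313 genes were higher, which is 32.4% of the higher genes against all other GABAergic nuclei, 40.3% of those against Foxp2 nuclei and 61.3% of those against Tshz1 nuclei. Lower in all 3 were 218 genes, which is 17.2, 32.5 and 44.5% of the same lists. Of the 20 named higher genes, 18 were among the 313. Of the 10 named lower genes, 7 were among the 218. Il1rapl2 did not pass against Foxp2 nuclei without Tshz1 (log2 −0.21, adjusted p = 0.407). Epha4 (log2 −0.47, adjusted p = 0.154) and Ebf1 (log2 0.40, adjusted p = 0.167) did not pass against Tshz1 nuclei without Foxp2.

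The label genes separated the nuclei from both single-gene sets. Chst9 was at 364, 482, 357 and 379 CPM in Tshz1 Foxp2 nuclei, against 24.0, 27.7, 55.7 and 25.4 CPM in Foxp2 nuclei without Tshz1. In Tshz1 nuclei without Foxp2 it was near absent in 3 libraries, at 3.08, 2.60 and 2.37 CPM in male 1, male 2 and female 2, and at 46.8 CPM in female 1. Npffr2 was at 39.6, 60.4, 53.7 and 54.4 CPM, against 6.60, 5.38, 10.2 and 10.4 CPM in Foxp2 nuclei without Tshz1. It was at 0.770, 4.33, 0 and 4.74 CPM in Tshz1 nuclei without Foxp2. The few nuclei of that set in the female libraries, 23 and 25, make its values there coarse.

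Against Foxp2 nuclei without Tshz1, Rai14 was at 52.9, 80.7, 83.0 and 60.4 CPM, against 5.24, 7.51, 10.5 and 2.34 CPM (log2 3.4 ± 0.16, adjusted p = 9.76e-11). Nfib was at 379, 496, 477 and 286 CPM, against 60.8, 66.2, 118 and 59.5 CPM (log2 2.5, adjusted p = 9.76e-11). Homer2, a scaffold that ties metabotropic glutamate receptors to calcium stores, was at 86.3, 102, 73.3 and 70.5 CPM, against 19.8, 24.5, 17.6 and 29.1 CPM (log2 1.98, adjusted p = 1.69e-09). No library of either set crossed into the other for these genes, which the same naming rule favours and which adds no support. In the same comparison 2 of 3 oligodendrocyte precursor markers (Pdgfra and Vcan, list median 0.78) and 2 of 7 astrocyte markers (list median 0.60) were higher, and their part in the results was not tested. The lower gene with the largest fold among those named was Nxph2, a secreted ligand of alpha-neurexins, at 26.1, 9.67, 8.55 and 4.03 CPM, against 132, 123, 34.0 and 40.8 CPM (log2 −2.77, adjusted p = 5.74e-09). Fign, a microtubule-severing protein, was at 120, 96.7, 140 and 149 CPM, against 365, 331, 460 and 425 CPM (log2 −1.66, adjusted p = 2.33e-10). Nxph1, a relative of Nxph2, and Cntnap4, Ptchd4, Tshz2 and Htr2c were lower too, with log2 folds from −1.56 to −1.44. Drd1 did not pass the test here, at 21.6, 27.7, 17.1 and 32.2 CPM against 22.6, 21.7, 15.8 and 21.4 CPM (adjusted p = 0.519). Oprm1 (log2 0.73, adjusted p = 1.13e-05) and Six3 (log2 1.77, adjusted p = 4.12e-07) were higher. Without male 1 this comparison called 807 genes in place of 1447, and without male 2 it called 789.

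Against Tshz1 nuclei without Foxp2, Erbb4 was at 5587, 6677, 5921 and 4709 CPM, against 1447, 1033, 1393 and 503 CPM (log2 2.47 ± 0.16, adjusted p = 9.32e-09). Meis2 was at 1739, 1901, 1984 and 1581 CPM, against 531, 519, 673 and 439 CPM (log2 1.76, adjusted p = 3.57e-09). Drd1 was at 21.8, 28.0, 17.7 and 32.5 CPM, against 6.93, 12.1, 5.85 and 9.48 CPM (log2 1.47, adjusted p = 0.00205), with no overlap. The Tshz1 nuclei without Foxp2 carried more Dach1, a transcriptional cofactor of eye and limb development, and Megf11, a receptor that spaces retinal neurons in the mouse. Dach1 was at 68.9, 51.0, 80.8 and 42.7 CPM in Tshz1 Foxp2 nuclei, against 377, 607, 533 and 185 CPM (log2 −2.84, adjusted p = 8.08e-09). Megf11 was at 79.3, 45.2, 75.8 and 44.8 CPM, against 345, 461, 415 and 363 CPM (log2 −2.69, adjusted p = 9.32e-09). Etv1, an ETS family factor, was at 20.8, 12.8, 27.8 and 12.2 CPM, against 134, 83.9, 76.1 and 104 CPM (log2 −2.57, adjusted p = 5.34e-08). The comparison rests on male 2 more than on the other libraries, since 530 genes were called without it in place of 1001.

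**Figure D3:**
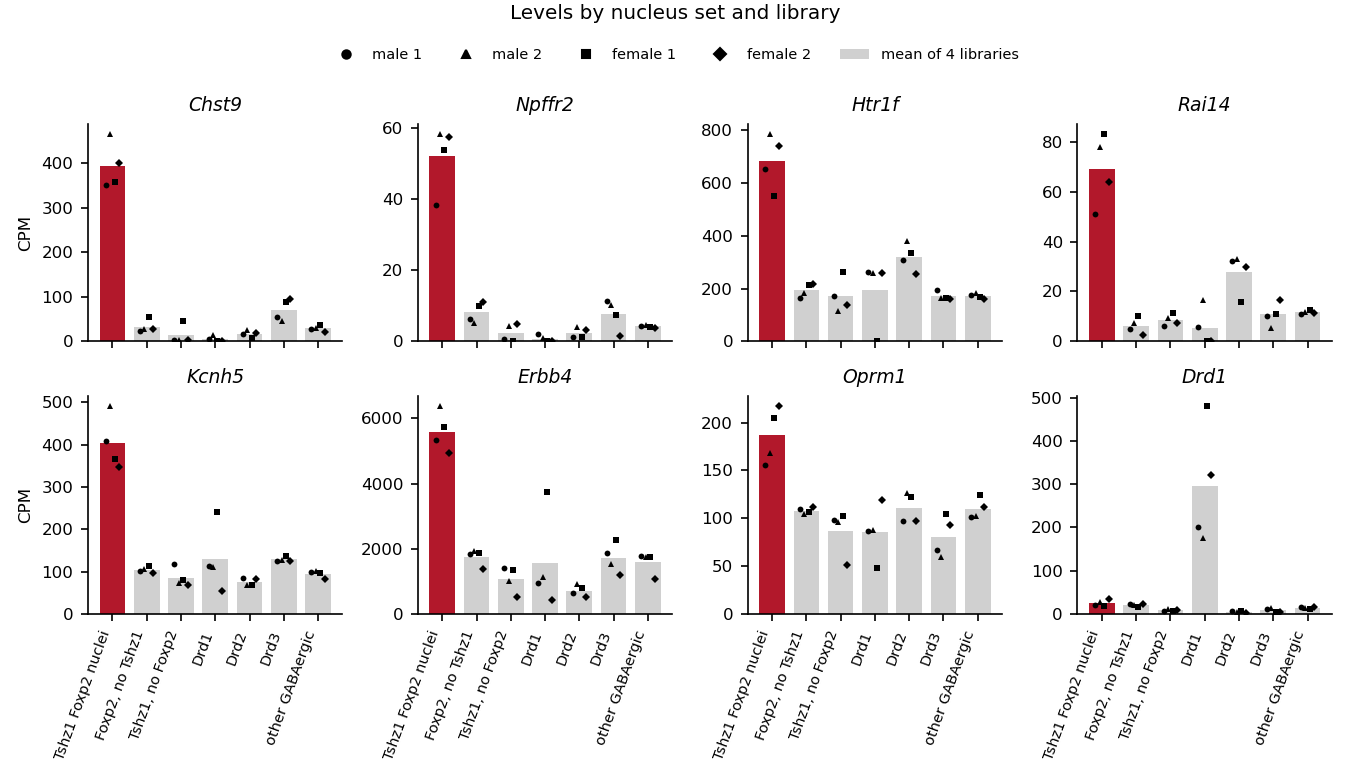
Levels of 8 genes in CPM (vertical axis, linear from 0) in 7 sets of nuclei (horizontal axis), with a bar at the mean of 4 libraries and 1 marker for each library. Tshz1 Foxp2 nuclei hold the tallest bars for Chst9, Npffr2, Htr1f, Rai14, Kcnh5 and Erbb4, while Drd1 is highest in the Drd1 nuclei that its own level defines.

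The Tshz1 Foxp2 nuclei were not uniform, and Chst9 divided them. This split was added after the data were seen. Nuclei with at least 1 Chst9 UMI numbered 201, 185, 73 and 33, and those without 62, 50, 38 and 16. The nuclei with Chst9 were not the deeper ones, with median UMI counts of 10943, 9678, 4768 and 6020, against 12916, 12453, 6116.5 and 10485.5 for those without. Of 8540 genes tested, 488 (5.71%) were called, 251 (2.94%) higher and 237 (2.78%) lower in nuclei with Chst9, and the count was 229 without male 1, 291 without male 2 and 310 without female 1. As a description, Npffr2 was at 51.8, 74.1, 84.8 and 81.2 CPM in nuclei with Chst9, against 12.7, 21.9, 17.4 and 21.8 CPM in those without. Htr1f was at 886, 983, 799 and 1052 CPM, against 217, 341, 270 and 272 CPM. The gate genes differed too. Foxp2 was at 1406, 1496, 1566 and 1397 CPM, against 1006, 986, 1138 and 866 CPM. Tshz1 was at 387, 454, 669 and 515 CPM, against 272, 359, 459 and 327 CPM. Nuclei without Chst9 were thus deeper and lower in both gate genes. A deeper nucleus passes a gate of raw UMIs more easily, and the part of this in the split was not tested.

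Several of the leading genes lay mostly in the nuclei with Chst9. Rai14 was at 73.8, 99.0, 120 and 106 CPM in nuclei with Chst9, against 5.44, 29.2, 40.7 and 0 CPM in nuclei without it (log2 2.39 ± 0.28, adjusted p = 8.24e-06). Erbb4 was at 6763, 7831, 7970 and 7114 CPM, against 2957, 3238, 3238 and 1629 CPM (log2 1.45, adjusted p = 6.35e-08). Kcnh5 was at 535, 600, 522 and 466 CPM, against 179, 260, 189 and 169 CPM (log2 1.42, adjusted p = 3.69e-08). In each the libraries of the 2 sets did not overlap, which the naming rule favours and which adds no support. Without the library term 12 of the 30 named genes of this split were not called, among them Rai14 (adjusted p = 0.0714), Cpne4, Nfib and Htr4. Gpc3, a glypican that carries heparan sulfate, was at 113, 133, 73.6 and 124 CPM, against 39.0, 32.1, 23.2 and 27.2 CPM (log2 1.77, adjusted p = 9.71e-07). Oprm1 was at 189, 204, 270 and 272 CPM, against 108, 94.8, 136 and 136 CPM (log2 0.96, adjusted p = 1.94e-05), and with Sema5b, called in 5 of 8 alternatives, and Lypd1 it made 3 higher and 0 lower of 4 striosome genes tested (median 0.92, against −0.01 for all genes).

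Nuclei without Chst9 held more of other genes. Grik1, a kainate receptor subunit, was at 259, 193, 152 and 148 CPM in nuclei with Chst9, against 838, 873, 366 and 937 CPM in nuclei without (log2 −1.93, adjusted p = 1.2e-08). Htr4 was at 56.5, 49.5, 22.3 and 45.9 CPM, against 135, 120, 58.1 and 104 CPM (log2 −1.26, adjusted p = 7.94e-06). Hs6st3 was at 235, 261, 236 and 198 CPM, against 598, 558, 595 and 474 CPM (log2 −1.26, adjusted p = 6.35e-08). Fign (log2 −1.48, adjusted p = 3.55e-06), Egfem1, Sema5a and Cntnap5a were lower in nuclei with Chst9 as well. Adarb2 and Prox1, known from interneurons of the caudal ganglionic eminence, were lower in nuclei with Chst9 (Prox1 in 3 of 7 alternatives), and of 21 ganglionic eminence transcription factors tested 4 were higher (Meis2, Pbx3, Six3 and Mef2c) and 4 lower. Drd1 did not pass the test between these nuclei (log2 0.74, adjusted p = 0.21).

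**Figure D4:**
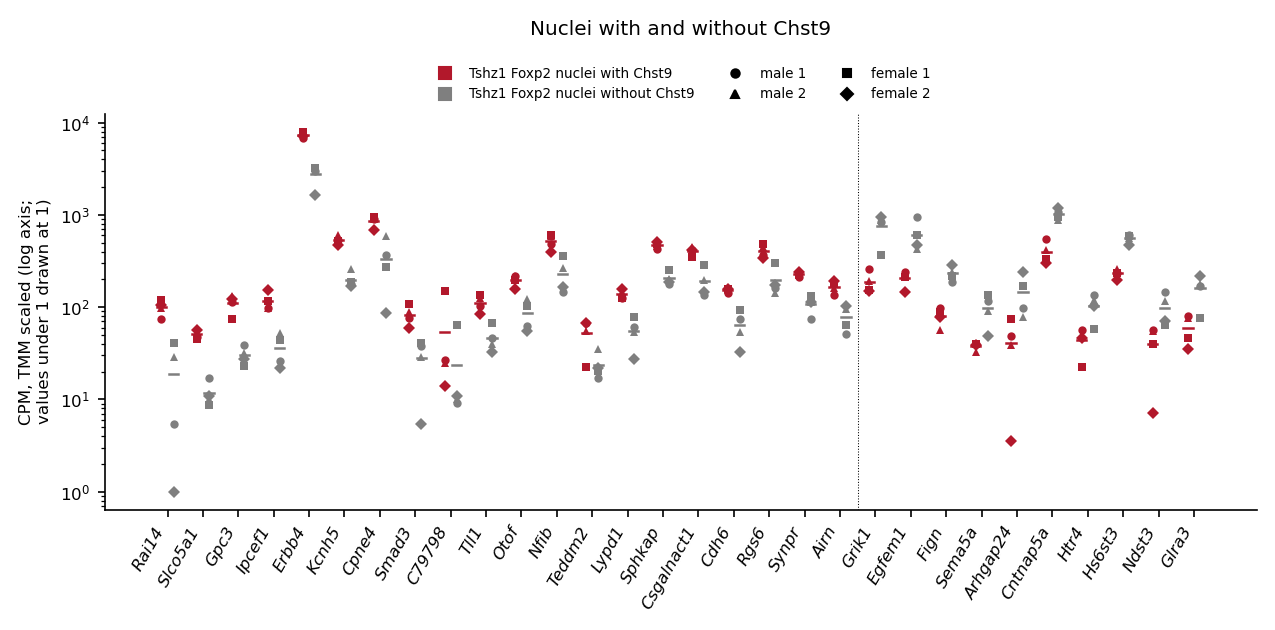
Levels of the named genes of the Chst9 split in CPM on a log axis (values under 1 drawn at 1) in Tshz1 Foxp2 nuclei with and without a Chst9 UMI, with 1 marker shape for each library. Kcnh5 lies between 466 and 600 CPM in nuclei with Chst9 and between 169 and 260 CPM in nuclei without it, and Grik1 between 148 and 259 CPM against 366 to 937 CPM.

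A split by Drd1 gave few differences. Tshz1 Foxp2 nuclei with at least 2 Drd1 UMIs numbered 15, 17, 2 and 4, and those with none 197, 178, 99 and 41, so the test used the 2 male libraries. Median UMI counts were 12862 and 13986 with Drd1, against 11112 and 9905.5 without. Of 9791 genes, 38 (0.388%) were called, 20 (0.204%) higher and 18 (0.184%) lower, a count that was 16 with median-ratio scaling, 6 without the library term and 0 by DESeq2, where 84 passed an unadjusted p of 0.05. Zfp536, a zinc finger repressor of neuronal differentiation, was at 310 and 154 CPM with Drd1, against 99.2 and 64.8 CPM without (log2 1.46 ± 0.23, adjusted p = 0.00023). Chsy3, a chondroitin synthase, was at 186 and 393 CPM, against 613 and 770 CPM (log2 −1.30, adjusted p = 0.000286). Grik1 was at 137 and 147 CPM, against 388 and 348 CPM (log2 −1.36, adjusted p = 0.000386). Homer2 was at 22.2 and 41.0 CPM, against 95.9 and 123 CPM (log2 −1.78, adjusted p = 0.00382). In each of these 4 genes both libraries with Drd1 lay on the same side of both without. The naming rule takes large folds of one direction, so this describes the choice and adds no support.

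The study set male against female tissue. Tshz1 Foxp2 nuclei made up 5.25% (exact 95% binomial interval 4.65 to 5.91), 4.85% (4.26 to 5.49), 3.08% (2.54 to 3.70) and 1.51% (1.12 to 1.99) of GABAergic nuclei in male 1, male 2, female 1 and female 2, out of 5005, 4844, 3603 and 3254. The intervals cover counting error only. The mean was 5.05% in the male libraries and 2.29% in the female libraries, a difference of 2.76 percentage points (exact two-sided permutation p = 0.333, the smallest that 2 against 2 libraries allow). A gate of 3 UMIs is easier to pass in a deeper nucleus. For a second count, nuclei under 3000 UMIs were left out, 1351 and 1403 in the male and 3783 and 4247 in the female libraries. Among them were 0 and 0 male and 8 and 5 female Tshz1 Foxp2 nuclei. The rest were thinned to 3000 UMIs and the gate lowered to 2 UMIs. The shares were then 4.88 and 4.94% in the male libraries and 4.30 and 2.44% in the female libraries, a difference of 1.54 points. The part of the unequal loss of nuclei was not tested. Female 2 was lowest in both.

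**Figure D5:**
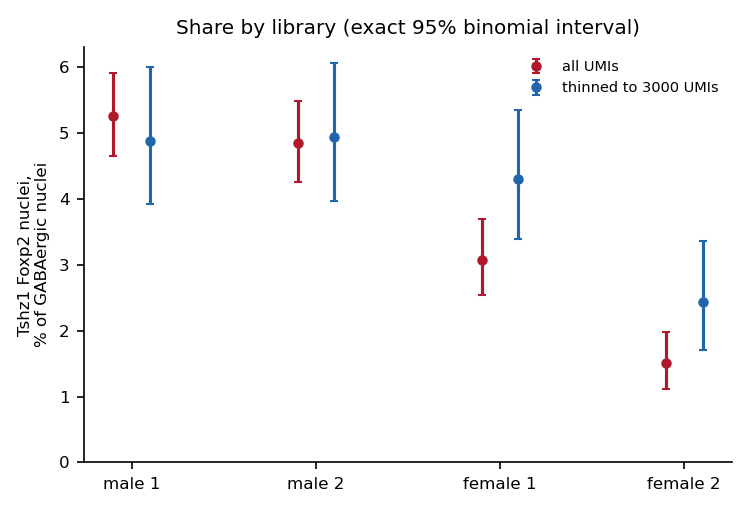
Tshz1 Foxp2 nuclei as a percentage of GABAergic nuclei (vertical axis) in each library (horizontal axis), from all UMIs and after thinning to 3000 UMIs, with exact 95% binomial intervals that cover counting error. The male libraries lie at 5.25 and 4.85% and the female libraries at 3.08 and 1.51% with all UMIs, and female 1 lies at 4.30% after thinning.

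Between male and female Tshz1 Foxp2 nuclei, 4 of 11345 genes (0.0353%) passed the test, 3 (0.0264%) higher and 1 (0.00881%) lower in the male libraries, while 1403 passed an unadjusted p of 0.05. Xist, the RNA that silences an X chromosome in female cells, was at 0 and 0 CPM in the male libraries, against 1914 and 1607 CPM in the female libraries (adjusted p = 0.000866). Uty, a Y-linked demethylase gene, was at 149 and 151 CPM, against 0 and 0 CPM (adjusted p = 0.0188). Eif2s3y, a Y-linked translation factor gene, was at 123 and 135 CPM, against 1.26 and 0 CPM (adjusted p = 0.0178). These levels match the labelled sexes. The remaining gene, Gm55122, outside the naming rule and given because so few passed, was at 93.8 and 86.9 CPM, against 8.82 and 10.2 CPM (adjusted p = 0.0368). The count moved widely with the alternatives, so the few calls do not show that the sexes are alike.

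Whether the contrast with other GABAergic nuclei differed by sex was tested within the same fit, where each library's other nuclei serve as its own baseline. Of 17560 genes, 88 (0.501%) passed, 37 (0.211%) with a higher contrast in the male libraries and 51 (0.29%) with a lower one, a split that was 21 and 54 with median-ratio scaling. Otof was at 170 and 192 CPM in male and 148 and 105 CPM in female Tshz1 Foxp2 nuclei, against 52.9 and 54.0 CPM in male and 70.8 and 71.1 CPM in female other GABAergic nuclei. Its contrast was larger in the male libraries by 0.88 on the log2 scale (adjusted p = 2.5e-06), though Tshz1 Foxp2 nuclei were higher in all 4. Sema5b had a larger contrast in the male libraries as well, by 0.78 (adjusted p = 0.00128). Mobp, an oligodendrocyte gene, had a lower contrast in the male libraries, by −0.99 (adjusted p = 0.000148), and was at 26.4 and 24.8 CPM in male and 167 and 40.3 CPM in female Tshz1 Foxp2 nuclei. The part of glial RNA in these differences was not tested beyond the removal of nuclei with glial UMIs, after which 28 genes passed. After thinning, or without the library term, 0 genes passed (517 and 431 at an unadjusted p of 0.05).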

How the data were processed

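The authors deposited raw UMI counts per gene and barcode for 4 libraries made with 10x Genomics droplet chemistry, per the labels. The submitters' processing notes name Cell Ranger 6.0.1, Seurat 5 and the build mm10. Cell Ranger 9.0.1 made the matrices of both male libraries, 7.0.0 that of female 1 and 7.2.0 that of female 2, per the file headers. The 31899 gene identifiers common to all libraries, which hold at least 97.7% of each library's UMIs, were used.

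Barcodes with 500 to 8000 genes and under 5% mitochondrial UMIs were kept (38868 of 40532). No other doublet removal was made in the results given first, and an alternative removed the highest Scrublet scores at 0.8% per 1000 barcodes. UMI counts were summed per library and nucleus set and tested with edgeR 4.0.16 (quasi-likelihood test, TMM scaling, filterByExpr, Benjamini-Hochberg adjustment over all genes tested). DESeq2 1.42.0 was an alternative. Sets of one library come from the same sample, so the library was a block in every contrast of nucleus sets and no block was used between the sexes. Levels are CPM with TMM scaling. The set levels of the plot by nucleus set and the Chst9 levels just inside and outside the gate are unscaled CPM. Fits were checked on simulated counts.

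The nuclei, lists and tests were chosen with earlier results of these data known. Named genes are up to 20 higher and 10 lower by log2 fold with an adjusted p under 0.05, one direction in every library and at least 50 CPM in the higher set, without predicted, mitochondrial and ribosomal symbols, plus listed genes. Sex contrasts name up to 10 each way. The split by Chst9 and the removal of nuclei with glial UMIs were added after the data were seen. A few genes that met these rules are not reported here.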

Additional observations from a re-analysis of the deposited data

Results flagged for a closer look

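The contrast of Tshz1 Foxp2 nuclei with other GABAergic nuclei differed between male and female libraries for 22 named genes, by a test of the difference itself. Each value is the log2 fold in the male libraries minus that in the female libraries. The difference was positive for Klhl1 (0.91), Otof (0.88), Ndst3 (0.81), Shisa6 (0.78), Sema5b (0.78), Epha10 (0.76), Il1rapl2 (0.76), Rasgrf2 (0.76), Elavl2 (0.76), Cacna2d2 (0.74), Tshz2 (0.72) and Cpne4 (0.53). It was negative for Arhgap24 (−1.06), Lrmda (−1.03), Mobp (−0.99), Sox5 (−0.87), Il1rap (−0.87), Adipor2 (−0.86), Rab31 (−0.84), Maml2 (−0.75), Ust (−0.74) and Itgb8 (−0.74). Depth, software and gene list changed with sex, and their part was not tested. After removal of nuclei with 3 or more glial UMIs, Klhl1, Otof, Shisa6, Il1rapl2, Cacna2d2, Arhgap24, Maml2, Itgb8 and Tshz2 still passed. Ndst3 passed in 0 of 14 alternatives, Epha10 in 1 and Itgb8 in 4. None of the 22 passed with DESeq2 or without the library term. After thinning to 3000 UMIs none of the 22 passed. Klhl1, Il1rapl2, Rasgrf2, Elavl2, Lrmda, Mobp, Tshz2 and Cpne4 changed sign. The summed oligodendrocyte markers stood at 1239 CPM in the Tshz1 Foxp2 nuclei of female 1, against 624 CPM in its other GABAergic nuclei.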

How the results depend on the processing

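The 2236 genes called against other GABAergic nuclei became 1240 with DESeq2, 297 without the replicate block, 1342 after thinning and 1346 to 2183 with a library left out, the lowest without male 2. Against Foxp2 nuclei, 1447 became 813 with DESeq2, 180 without the block and 789 to 1451 with a library left out. Against Tshz1 nuclei, 1001 became 569, 354 and 530 to 875 under the same settings. The Chst9 split went from 488 to 234 with DESeq2, 50 without the block and 229 to 488 with a library left out. The Drd1 split of 38 became 16 with median-ratio scaling, 0 with DESeq2 and 6 without the block, and leaving a library out was not run with 2 libraries. Between the sexes, 4 genes became 925 without a filter, 173 with DESeq2, 166 with a gate of 4 UMIs, 43 after thinning, 15 without nuclei with glial UMIs and 50 to 2179 with a library left out. With replicate number as a block 391 passed, though same-numbered libraries shared only a number (correlation 0.031 over 11352 genes). The 88 sex differences of the contrast became 1 with DESeq2, 0 without the block, 0 after thinning, 28 without nuclei with glial UMIs and 2 to 279 with a library left out (5 without male 1, 2 without male 2, 101 without female 1, 279 without female 2). Thinning reversed Klhl1 (−1.46), Il1rapl2 (−1.14), Rasgrf2 (−0.068), Elavl2 (−0.19), Tshz2 (−0.36), Cpne4 (−0.022), Lrmda (0.57) and Mobp (0.40). The share difference between male and female libraries of 2.76 points was 1.54 after thinning, 3.49 with a gate of 2 UMIs, 2.30 with 4, 2.60 without likely doublets and 1.97 to 3.55 with a library left out. The cause of these changes was not tested. Of the 30 genes named against other GABAergic nuclei, 29 were called under all 14 alternatives, and Kcnmb2 under 13.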
